A study of Mus musculus with 2 samples.

Results

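Leukocyte adhesion molecules and their ligands were followed in cells of the infarcted mouse brain. The group holds 10 genes of the 31253 in the deposited matrices, taken by gene symbol. They are the vascular molecules Selp, Sele, Icam1, Icam2, Vcam1 and Ackr1 and the leukocyte molecules Selplg, Itgal, Itgb2 and Itga4. All 10 symbols were found, and each had UMIs (unique molecular identifiers, 1 per captured RNA molecule) in both libraries.

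The infarcted tissue was taken at day 3 from mice given tMCAO (transient occlusion of the middle cerebral artery), a model of ischaemic stroke, and was dissociated with collagenase for BD Rhapsody single-cell RNA-seq. The series holds 1 library labelled flox, which the design text calls WT, and 1 library labelled Hilpda cKO, a conditional knockout of the lipid droplet gene Hilpda. Both groups had the occlusion, the same time point and the same tissue. The labels name no Cre driver, no deleted exons and neither the number, age nor sex of the animals behind a library. With 1 library per group there is no replicate and no test. A difference between the libraries cannot be told apart from library preparation, and every interval below is a 95% interval that covers counting error only.

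Leukocytes leave the blood in steps, mostly in post-capillary venules. P-selectin (Selp) and E-selectin (Sele) on endothelial cells catch PSGL-1 (Selplg) on leukocytes, and the atypical chemokine receptor Ackr1 carries chemokines on venular endothelium. Chemokines switch leukocyte integrins to a binding state: LFA-1, made of Itgal and Itgb2, holds ICAM-1 and ICAM-2, and VLA-4, made of Itga4 and Itgb1, holds VCAM-1.

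The flox library held 8593 barcodes and 67864602 UMIs, and the cKO library 7382 barcodes and 70665440 UMIs. After filters and removal of doublets, 8065 flox cells and 6984 cKO cells were kept, with a median of 6997 and 8741 UMIs, and 56 barcodes occurred in both libraries. Hilpda over all kept cells stood at 273 CPM (UMIs of the gene per 1e6 UMIs of the summed cells) in flox and 214 CPM in cKO, and in the endothelial class at 53.8 and 57.8 CPM. In monocyte or macrophage-like cells it was at 472 and 268 CPM. In microglia-like cells it was at 101 and 224 CPM, higher in the library labelled cKO, the opposite direction. Throughout, cKO means the library labelled Hilpda cKO. Since the assay counts the 3′ end and the labels do not place the deletion, these values do not check it. The endothelial side was the endothelial cell-like class, 563 flox and 540 cKO cells. All 12 of its markers were detected, with summed levels of 21291 and 18402 CPM. The leukocyte side was the sum of 6 classes, 6445 flox and 5223 cKO cells, made up of microglia-like, monocyte or macrophage-like, border-associated macrophage-like, dendritic cell-like, neutrophil-like and T or NK cell-like cells. Markers of other blood and vascular cells in the endothelial class stood, in flox and cKO, at 2766 and 2909 CPM for 11 monocyte or macrophage genes and at 75.1 and 141 CPM for 12 neutrophil genes. They stood at 56.6 and 8.41 CPM for 8 platelet genes (3 of them, Gp9, Gp1ba and Gp6, at 0 in cKO), 212 and 131 CPM for 10 pericyte genes and 265 and 137 CPM for the 6 pan-leukocyte genes Ptprc, Spi1, Csf1r, Cd53, Coro1a and Laptm5.

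On GRCm38 with GENCODE vM21, the plus-strand members were Selp (chr1:164115264-164150026), Sele (chr1:164048234-164057677), Icam1 (chr9:21015985-21028817), Itgal (chr7:127296260-127335138), Itgb2 (chr10:77530252-77565708) and Itga4 (chr2:79255426-79333123). On the minus strand lay Icam2 (chr11:106377656-106388075), Vcam1 (chr3:116109949-116129688), Ackr1 (chr1:173331886-173333750) and Selplg (chr5:113818536-113832644). Selp, Icam1, Vcam1 and Itga4 overlap a gene on the other strand and Ackr1 overlaps Cadm3 on its own. Whether counting used the strand is not stated, so reads of such pairs cannot be told apart from the tables alone.

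The promoters of 4 vascular members are shown first, because these genes were densest in 1 endothelial subset described below and the reference table held an entry for them. The sequences are RefSeq entries on GRCm38.p6, from 250 bases before to 50 bases after the annotated start, in the direction of the gene. They lie at chr1:164115014-164115313 on the plus strand for Selp, chr1:164047984-164048283 on the plus strand for Sele, chr9:21015690-21015989 on the plus strand for Icam1 and chr1:173333454-173333753 on the minus strand for Ackr1. Capitals mark matches, on either strand, to 3 short motifs: the letters GGAANTTCC, the TATA box letters TATAAA, and AGGAAG, which reads CTTCCT on the opposite strand.
Selp: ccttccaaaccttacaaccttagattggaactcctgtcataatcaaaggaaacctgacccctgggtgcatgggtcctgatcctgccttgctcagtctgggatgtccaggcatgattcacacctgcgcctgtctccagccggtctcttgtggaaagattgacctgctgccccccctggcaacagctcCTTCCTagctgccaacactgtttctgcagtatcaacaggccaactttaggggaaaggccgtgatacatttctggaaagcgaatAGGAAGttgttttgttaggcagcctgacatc
Sele: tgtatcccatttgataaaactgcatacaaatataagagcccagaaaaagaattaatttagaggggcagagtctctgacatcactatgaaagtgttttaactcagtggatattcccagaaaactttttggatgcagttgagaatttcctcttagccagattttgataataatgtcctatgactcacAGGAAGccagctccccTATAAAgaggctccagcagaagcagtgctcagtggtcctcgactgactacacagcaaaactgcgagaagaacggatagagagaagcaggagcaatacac
Icam1: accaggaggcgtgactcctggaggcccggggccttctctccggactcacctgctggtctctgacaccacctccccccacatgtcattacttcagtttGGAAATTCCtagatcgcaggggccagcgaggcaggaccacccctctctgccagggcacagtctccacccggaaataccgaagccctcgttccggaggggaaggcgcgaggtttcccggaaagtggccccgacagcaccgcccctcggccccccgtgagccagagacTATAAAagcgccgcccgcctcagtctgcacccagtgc
Ackr1: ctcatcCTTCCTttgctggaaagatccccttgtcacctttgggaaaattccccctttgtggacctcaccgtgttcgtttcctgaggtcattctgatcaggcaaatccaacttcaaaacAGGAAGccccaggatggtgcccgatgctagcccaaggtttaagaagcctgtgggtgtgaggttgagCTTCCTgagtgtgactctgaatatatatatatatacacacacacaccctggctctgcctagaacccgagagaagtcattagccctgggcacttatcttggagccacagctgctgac

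Icam1 held its match at −153 from the start, and 0.928% of 32851 promoters of this length held one, a palindromic form of the letters bound by NF-kB. The TATA box letters lay at −49 in Sele and at 14 in Icam1, and 13.6% of promoters held it. Positions are from the RefSeq start, which differs from the GENCODE start for Icam1 and Ackr1. The GENCODE start of Icam1, 21015985, lies near the downstream end of its window, after the TATA box letters. That of Ackr1, 173333750, lies near the upstream end, so most of the Ackr1 window is inside the GENCODE gene. The third motif, which holds the core letters of ETS factors, lay in Selp, Sele and Ackr1, and 35.4% of promoters held it. The longer NF-kB consensus was searched by its degenerate form, which 4.51% of promoters held, and none of the 4 windows had a match. The table held promoters for 5 of the 10 members, the other being Itga4, which had no match to any of these motifs. A match is a description of letters and shows no bound site.

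In the comparison of sides, 5 members were at least 2-fold higher on the endothelial side than on the leukocyte side in both libraries, namely Selp, Sele, Icam2, Vcam1 and Ackr1. Another 4 members, Selplg, Itgal, Itgb2 and Itga4, were at least 2-fold higher on the leukocyte side in both. Icam1 passed in neither direction. The rule asked for 2-fold, at least 30 UMIs on the higher side and an interval without equality in each library. Over all genes measured, 14.9% passed it on the endothelial side and 17% on the leukocyte side.

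**Figure D1:**
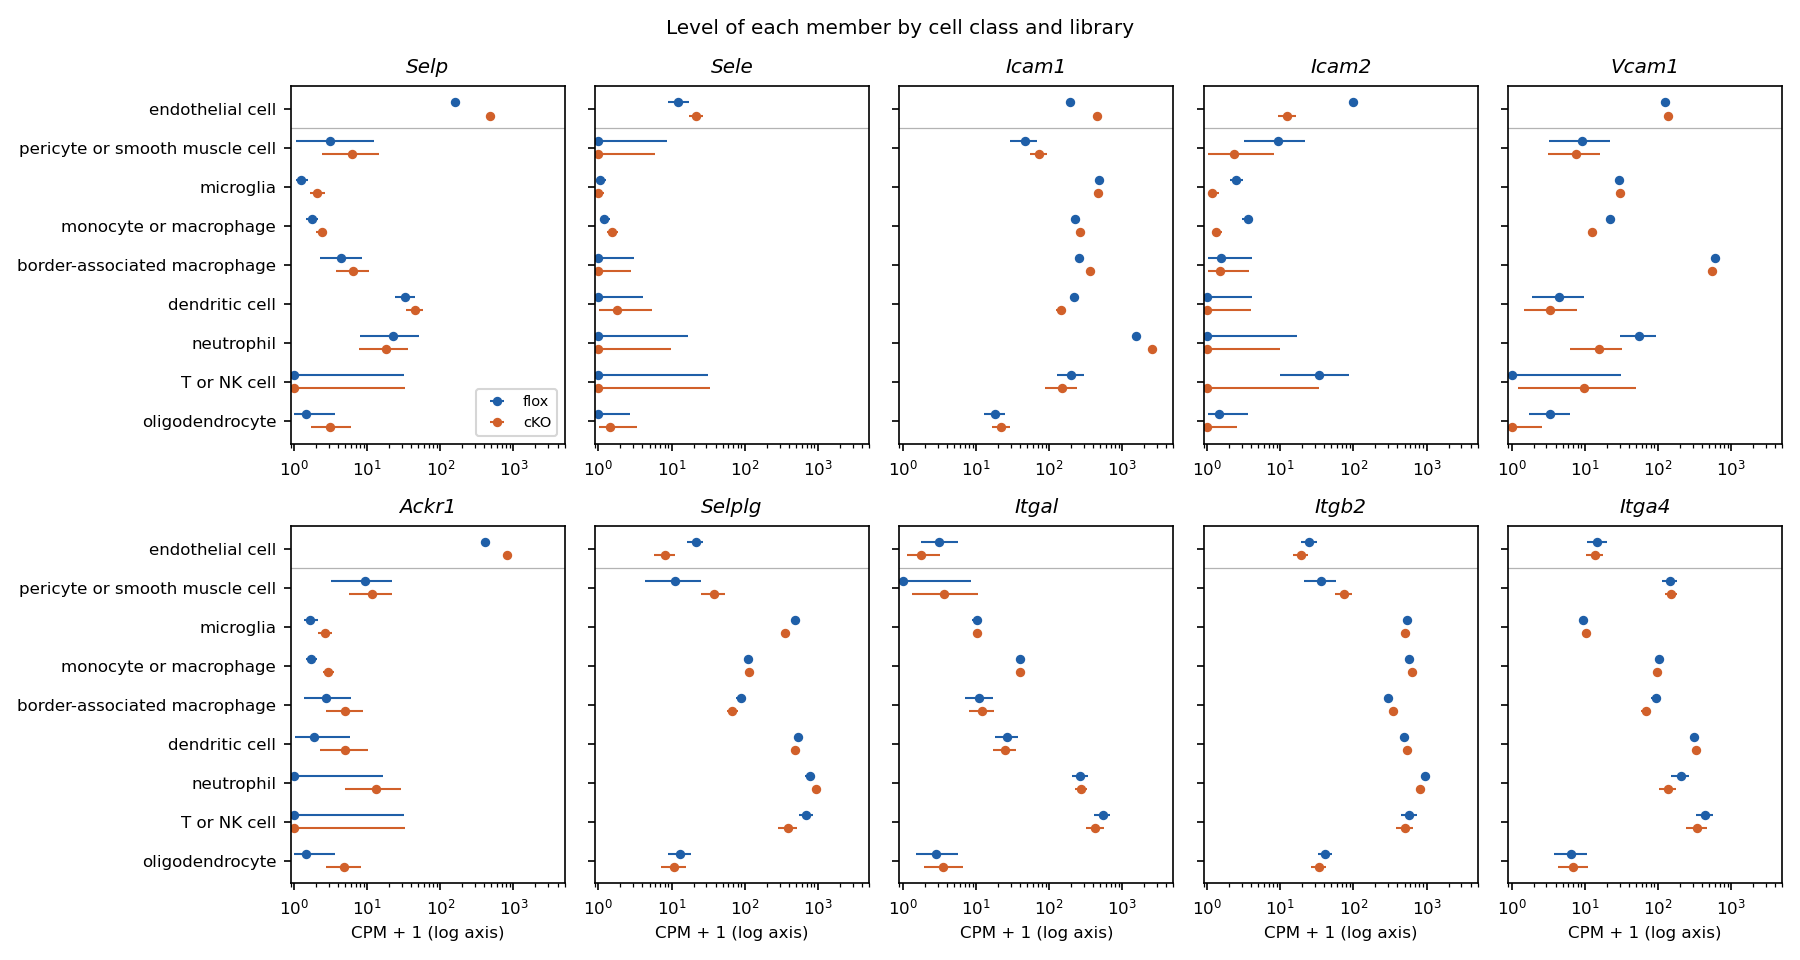
Level of each member (CPM + 1, log axis) in 9 cell classes, flox in blue and cKO in orange, with exact Poisson 95% intervals; a point at 1 is a class with 0 UMIs. Selp, Sele, Icam2 and Ackr1 peak in the endothelial row (Selp 158 and 478 CPM), Icam1 peaks in neutrophils (1551 and 2567 CPM) and Vcam1 in border-associated macrophages (601 and 543 CPM).

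Both selectins were highest in the endothelial class of the 15 classes measured, in both libraries. Selp had 445 UMIs in flox and 1877 in cKO endothelial cells, 158 CPM (144 to 174) and 478 CPM (457 to 500). On the leukocyte side it stood at 1.37 and 2.47 CPM, a log2 ratio of endothelial to leukocyte level of 6.86 in flox and 7.60 in cKO. The next class in order was dendritic cell-like cells, at 32.2 and 43.5 CPM from 38 and 55 UMIs, whose intervals did not meet the endothelial ones. Platelets also carry P-selectin, and the 8 platelet genes were at 56.6 and 8.41 CPM in the endothelial class; their part in the Selp values was not tested. Sele had only 32 and 81 UMIs in endothelial cells, 11.4 CPM (7.79 to 16.1) and 20.6 CPM (16.4 to 25.6), against 7 and 18 UMIs in the far larger leukocyte side.

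Selp in dendritic cells did not come with Ackr1. In endothelial cells Ackr1 had more UMIs than Selp (1155 and 3212), while dendritic cells held 1 and 5 Ackr1 UMIs beside 38 and 55 of Selp. Of the flox dendritic cells, the 26 with the most Selp held 92.1% of its UMIs, and in cKO the top 24 held 80.0%. The summed endothelial markers in dendritic cells were 447 and 419.5 CPM, above the 129 and 103 CPM of macrophages, and their part in the Selp value was not tested.

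Ackr1 was the member with the widest gap between the sides. It stood at 411 CPM (388 to 436) in flox and 818 CPM (790 to 847) in cKO endothelial cells, and at 0.727 and 2.02 CPM on the leukocyte side (log2 ratios 9.14 and 8.66). The next class, neuroblast or neuron-like cells, had 15.4 and 13.7 CPM from 3 and 4 UMIs. The overlapping Cadm3 had 40 and 65 UMIs in the endothelial class, against 1155 and 3212 of Ackr1.

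The ICAM genes split. Icam2, which is carried constitutively by endothelium, had 274 UMIs in flox and 45 in cKO endothelial cells, 97.5 CPM (86.3 to 109.8) and 11.5 CPM (8.36 to 15.3), and 2.08 and 0.249 CPM on the leukocyte side. Icam1, which cytokines induce on many cells, was at 195 and 455 CPM in endothelial cells and at 331 and 356 CPM on the leukocyte side. Its side ratio changed sign between the libraries, −0.77 (−0.89 to −0.64) in flox and 0.35 (0.28 to 0.42) in cKO. Icam1 was below the leukocyte level in flox endothelium and above it in cKO endothelium, within 2-fold both times. With cells thinned to 1000 UMIs the value for Icam1, endothelial over leukocyte side, cKO, was −0.07, so the sign in cKO depended on that setting.

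In order of level, Icam1 was highest in neutrophil-like cells, at 1551 CPM (1396 to 1718) in flox and 2567 CPM (2415 to 2726) in cKO. Microglia-like cells followed in flox at 479 CPM. In cKO microglia (469.8 CPM, 460.5 to 479) and endothelial cells (455 CPM, 434 to 477) had overlapping intervals. Within microglia, Icam1 ran from 313 and 354 CPM in the cluster led by Mmp12, Cd5l and Lpl to 824 and 854 CPM in the cluster led by the homeostatic genes Siglech, Slc2a5 and P2ry12. Oligodendrocytes, as a class not known for Icam1, had 17.1 and 21.3 CPM. The thinned share of cells with an Icam1 UMI, at 1000 UMIs per cell, was 62.4% and 76.5% in neutrophils, 38.8% and 36.3% in microglia, and 1.10% and 2.44% in oligodendrocytes. Cells under 1000 UMIs were left out of these shares. Neutrophils had medians of only 1065 and 1306 UMIs, against 9114.5 and 14502.5 in microglia, so their shares cover the deeper neutrophils alone.

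Vcam1, the ligand of VLA-4, passed the endothelial rule against the summed leukocytes but was not highest in endothelium. Endothelial cells had 124 CPM (111 to 137) and 137 CPM (125 to 149). Border-associated macrophages had 601 CPM (565 to 638) and 543 CPM (511 to 576). Choroid plexus epithelial-like cells, at 279.7 and 180.3 CPM, and astrocyte-like cells, at 159 and 178 CPM, were next in order. The astrocyte and endothelial intervals overlapped in both libraries. Microglia and macrophages lay lower, at 28.5 and 21.2 CPM in flox. Against the summed leukocyte side, in which these 2 classes hold most cells, the log2 ratio of Vcam1 was 1.56 and 1.89.

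Among leukocyte molecules, Itgb2, the shared β2 integrin chain, was present in all 6 classes. It ranged over the 6 leukocyte classes from 300.4 CPM in border-associated macrophages to 960.1 CPM in neutrophils in flox, and from 349 to 806 CPM in the same classes in cKO. Itgal, its partner in LFA-1, was concentrated in T or NK cells (538 CPM in flox and 429.7 CPM in cKO) and neutrophils (263 and 273 CPM). It reached only 39.5 and 38.6 CPM in macrophages, and 9.18 and 9.40 CPM in microglia.

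Within macrophages, the cluster led by the monocyte genes Plac8 and Ccr2 had 132 and 116 CPM of Itgal and the cluster led by Fabp4 and Cd36 had 22.0 and 23.5 CPM. Microglia, with little Itgal, had 547 and 508 CPM of Itgb2.

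Selplg, which carries the selectin ligand, was high in neutrophils (773 CPM, 665 to 894, and 955 CPM, 864 to 1054), T or NK cells (687 and 386 CPM), dendritic cells (528 and 480.5 CPM) and microglia (489.9 and 354 CPM). Monocyte or macrophage-like cells, the largest leukocyte class, had 111 and 114 CPM. At 1000 UMIs per cell, 42.6% of flox and 32.8% of cKO microglia had a Selplg UMI, against 10.9% and 10.04% of macrophages. In microglia it varied by cluster, from 985 and 827 CPM in the Siglech cluster to 237 and 200 CPM in the Mmp12 cluster.

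Itga4, the α4 chain of VLA-4, had another distribution. It was highest in T or NK cells (439 and 342 CPM) and dendritic cells (308 and 330.1 CPM), intermediate in macrophages (103 and 96.2 CPM) and low in microglia (8.50 and 9.59 CPM). Oligodendrocytes, not known for Itga4, had 5.55 and 5.97 CPM, with intervals that overlapped the microglial ones. Pericyte or smooth muscle cell-like cells, which are not leukocytes, also had 144 CPM (112 to 182) and 150.01 CPM (124 to 180.2), above macrophages in both libraries.

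The small dendritic cluster led by Ccr7, the migratory dendritic marker, had 815 CPM (672 to 979) and 926 CPM (799 to 1066) of Itga4 from 40 and 44 cells. The same cells had 1051 and 636 CPM of Selplg, but 21.4 CPM (4.42 to 62.7) and 188 CPM (134 to 257) of Itgb2, the lowest Itgb2 of any leukocyte cluster in both libraries. The Itgb2 value rested on 3 and 39 UMIs. Itgb1, the partner of Itga4 in VLA-4, stood at 967 and 1141 CPM in endothelial cells and at 369.8 and 419.6 CPM on the leukocyte side.

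Leukocyte members were low in endothelial cells. Itgb2 stood at 23.9 and 18.1 CPM there, below the 40.3 and 32.4 CPM of oligodendrocytes, which are not known to express it. Selplg was at 20.3 and 7.13 CPM, against 12.03 and 9.81 CPM in oligodendrocytes, and Itgal at 2.14 and 0.764 CPM, from 6 and 3 UMIs. In the 461 flox and 465 cKO endothelial cells with UMIs of fewer than 2 pan-leukocyte genes, Selplg was at 5.81 and 4.22 CPM and Itgb2 at 13.6 and 10.1 CPM. In the other 102 and 75 endothelial cells Selplg was 60.4 and 17.8 CPM and Itgb2 52.4 and 47.5 CPM.

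The next question was how the libraries compared in endothelial cells. By the same rule between libraries, 4 of the 10 members passed: Selp and Icam1 were higher in cKO, Icam2 and Selplg lower. Over all genes measured in the class, 7.26% passed, 0.874% higher and 6.39% lower in cKO, so a fall was the common direction and a rise the rare one. The median log2 ratio of the genes with at least 30 UMIs was −0.09.

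**Figure D2:**
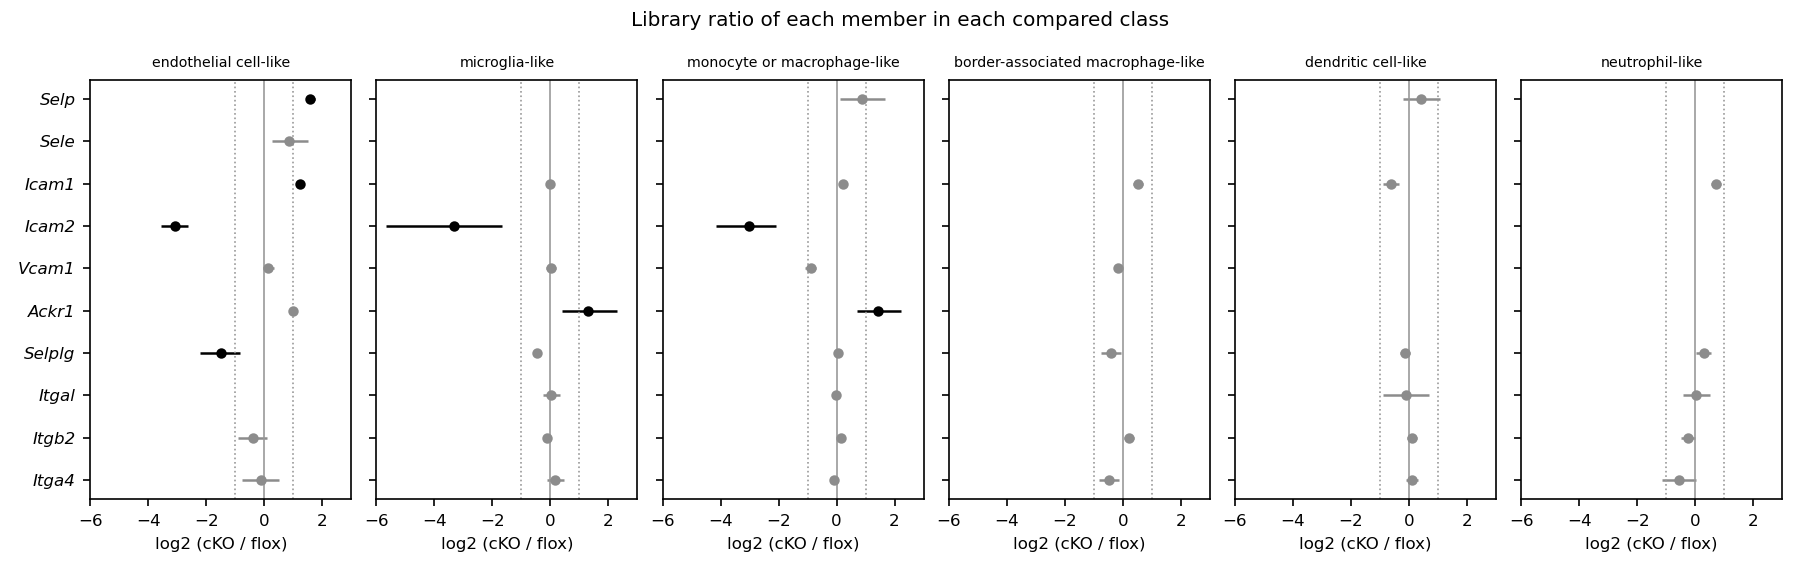
Log2 ratio of cKO over flox for each member in endothelial cells and 5 leukocyte classes, each of 100 or more cells per library, with exact conditional 95% intervals; black points passed the size rule, grey did not, dotted lines mark 2-fold, and members under 30 UMIs in the higher library are not drawn. In endothelial cells Selp (1.59) and Icam1 (1.23) lie right of the line, and Icam2 lies far left in endothelial (−3.09), microglia-like (−3.34) and macrophage-like (−3.04) cells.

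Selp was higher by 1.59 on the log2 scale (1.44 to 1.75) and Icam1 by 1.23 (1.09 to 1.37). Ackr1 lay just under the threshold at 0.99 (0.90 to 1.09), while Sele, at 0.86 (0.25 to 1.495), had an interval on both sides of 2-fold. Vcam1 differed by 0.14 (−0.05 to 0.34), an interval that includes equality. Endothelial cells were deeper in cKO, with a median of 5682 against 3948 UMIs, so shares were also compared at equal depth.

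With each cell thinned to 1000 UMIs (506 flox and 460 cKO cells, leaving out 57 and 80 shallower ones), the share of endothelial cells with an Icam1 UMI was 11.9% in flox and 28.7% in cKO. Selp went from 5.34% to 13.5% and Ackr1 from 12.1% to 24.8%. Vcam1 stood at 6.72% and 8.26%, and Icam2 at 8.89% and 0.870%. Before thinning the shares were 31.6% and 56.3% for Icam1, 11.4% and 23.0% for Selp, 19.7% and 34.4% for Ackr1, 17.4% and 27.2% for Vcam1 and 32.3% and 7.41% for Icam2. In oligodendrocytes, at median depths of 4828 and 5432 UMIs, the unthinned shares were 0.304% and 0.593% for Selp and 0.304% and 1.48% for Ackr1, and no thinned cell had a UMI of either.

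Selplg, lower in cKO at −1.51 (−2.22 to −0.83), came from 57 and 28 UMIs and stood in few cells, 1 of which held 14 UMIs in flox. Without the endothelial cells that carry leukocyte genes the ratio was −0.46 and no longer passed. An endothelial subset led by leukocyte genes, described below, held 41 of the flox and 14 of the cKO UMIs. Without it and a subset led by pericyte genes the ratio was −0.72 and did not pass. Less the median of genes of like GC content (−0.48) it was −1.03 and passed. Summed marker levels in the class did not share 1 direction: the pan-leukocyte genes were at 265 and 137 CPM, the monocyte or macrophage markers at 2766 and 2909 CPM and the neutrophil markers at 75.1 and 141 CPM. The neutrophil list holds Lcn2, which is also a venular marker. The monocyte or macrophage list summed to 1389 and 1562 CPM in pericyte or smooth muscle cell-like cells. These 2 sums may therefore not measure leukocyte RNA alone. The part of leukocyte RNA in the Selplg value was not tested.

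Endothelial cells were not uniform, and most Selp and Ackr1 UMIs lay in a small part of them. Sub-clustering without the members gave 6 subsets. The subset called venular-like from 12 markers, Vwf, Nr2f2 and Lrg1 among them, held 49 flox and 97 cKO cells. Selp and Ackr1, left out of the clustering, led it. Its identity was mixed: 1 venular marker, Lcn2, was among its 10 leading genes beside the cycling gene Ube2c, and its score for 6 cycling markers (0.925) was slightly above that for the venular markers (0.913). The score is the geometric mean, over a list, of each marker's level relative to the subset where it is highest. It held 78.7% and 82.3% of all endothelial Selp UMIs and 67.4% and 75.7% of the Ackr1 UMIs. Sele (53.1% and 61.7%), Vcam1 (40.9% and 56.5%), Icam1 (31.8% and 40.5%) and Icam2 (10.2% and 24.4%) had smaller shares there.

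Within this subset Selp reached 933 CPM in flox and 1464 CPM in cKO, against 39.0 and 116 CPM in the other endothelial cells. Ackr1 reached 2077 and 2304 CPM, against 154 and 272 CPM. Sele had 45.3 and 47.4 CPM from 17 and 50 UMIs. Icam1 was at 464 and 686 CPM, against 153 and 370.4 CPM elsewhere, and Vcam1 at 379 and 287 CPM, against 84.2 and 81.2 CPM. Icam2 was the exception, at 74.6 and 10.4 CPM against 101 and 11.8 CPM. These are descriptions of clustered cells.

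The share of this subset itself differed, 8.70% (6.51 to 11.3) of flox and 17.96% (14.8 to 21.5) of cKO endothelial cells. The capillary-like subset went the other way, from 36.4% (32.4 to 40.5) to 14.8% (11.9 to 18.1). The subset led by the tip cell gene Apln and by Cdh13 made up 24.0% and 32.0%. Median depths in flox and cKO were 7829 and 11253 UMIs for venular-like cells and 2840 and 3050 UMIs for capillary-like cells. More cells of a subset and better recovery of it from the tissue cannot be told apart here.

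**Figure D3:**
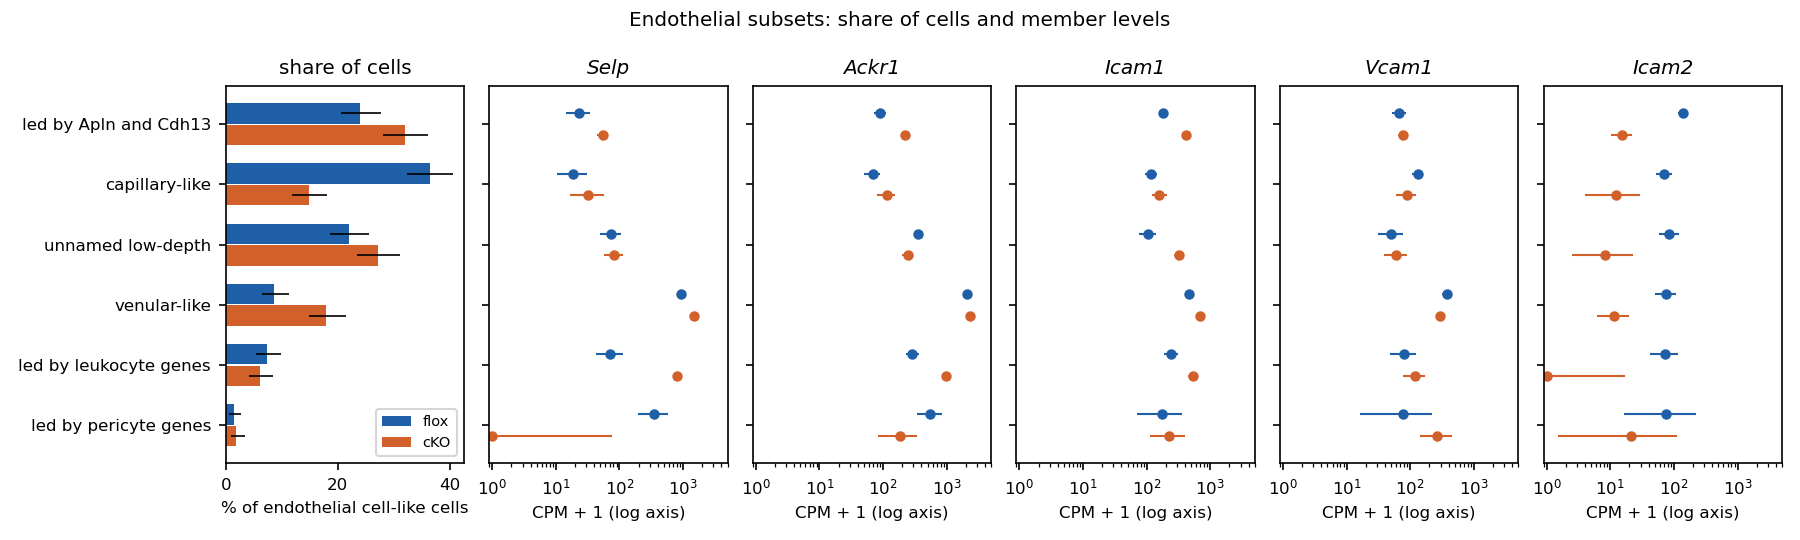
Left, share of endothelial cell-like cells in each of 6 subsets with exact 95% intervals; right, level of 5 members (CPM + 1, log axis) in each subset with Poisson 95% intervals, flox in blue and cKO in orange. The venular-like row holds the highest Selp (933 and 1464 CPM) and Ackr1 (2077 and 2304 CPM) and makes up 8.70% and 17.96% of the cells.

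Inside subsets the library differences of Ackr1, Selp and Icam1 varied in size and, for Ackr1, in direction. In venular-like cells the log2 ratio of cKO over flox was 0.15 (0.03 to 0.27) for Ackr1, 0.65 (0.48 to 0.82) for Selp and 0.56 (0.32 to 0.81) for Icam1. Vcam1 was lower there, at −0.40 (−0.69 to −0.10). In the Apln subset the ratios were 1.32 for Ackr1, 1.31 for Selp and 1.197 (0.96 to 1.44) for Icam1. In the low-depth unnamed subset Ackr1 was lower, at −0.57 (−0.95 to −0.19), and Icam1 higher, at 1.60 (1.09 to 2.14). Selp stood there at 0.18 (−0.58 to 0.95). In capillary-like cells the ratio was 0.74 (0.10 to 1.37) for Ackr1, 0.82 (−0.48 to 2.09) for Selp and 0.42 (−0.09 to 0.93) for Icam1. In the small subset led by leukocyte genes it was 1.74 for Ackr1, 3.51 for Selp (17 and 189 UMIs) and 1.14 for Icam1. The one led by pericyte genes held only 8 flox and 10 cKO cells. The ratio there was −1.61 for Ackr1 (22 and 9 UMIs) and 0.33 for Icam1 (7 and 11 UMIs). Selp went there from 14 UMIs in flox to 0 in cKO, the only subset where Selp was lower in cKO.

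With both libraries weighted to 1 common mix of subsets, the ratio was 0.33 for Ackr1, 0.84 for Selp, 0.91 for Icam1 and −3.18 for Icam2, and Selp and Icam1 no longer reached 2-fold. This alternative was chosen after the data were seen. Less the median ratio of the other classes, Selp stood at 0.93, Icam1 at 0.99 and Ackr1 at −0.31. The first 2 were also under 2-fold there, and Ackr1 changed sign. The other classes held few UMIs of Ackr1, at 15 and 34 in microglia and 22 and 62 in macrophages. Selp had 5 and 22 UMIs in microglia and 23 and 44 in macrophages. Whether free RNA of endothelial cells made up such counts was not tested. For Ackr1 and Selp this setting therefore cannot isolate an endothelial difference.

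The subset led by the leukocyte genes Csf1r, Ctss and Fcgr3 held 42 flox and 33 cKO cells and gave Selp at 71.0 and 809 CPM. Those values rest on 4 and 8 cells with a Selp UMI. Leaving out this subset and the one led by pericyte genes, the ratio of Selp over the class was 1.502 and that of Icam1 1.25, and both still passed.

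**Figure D4:**
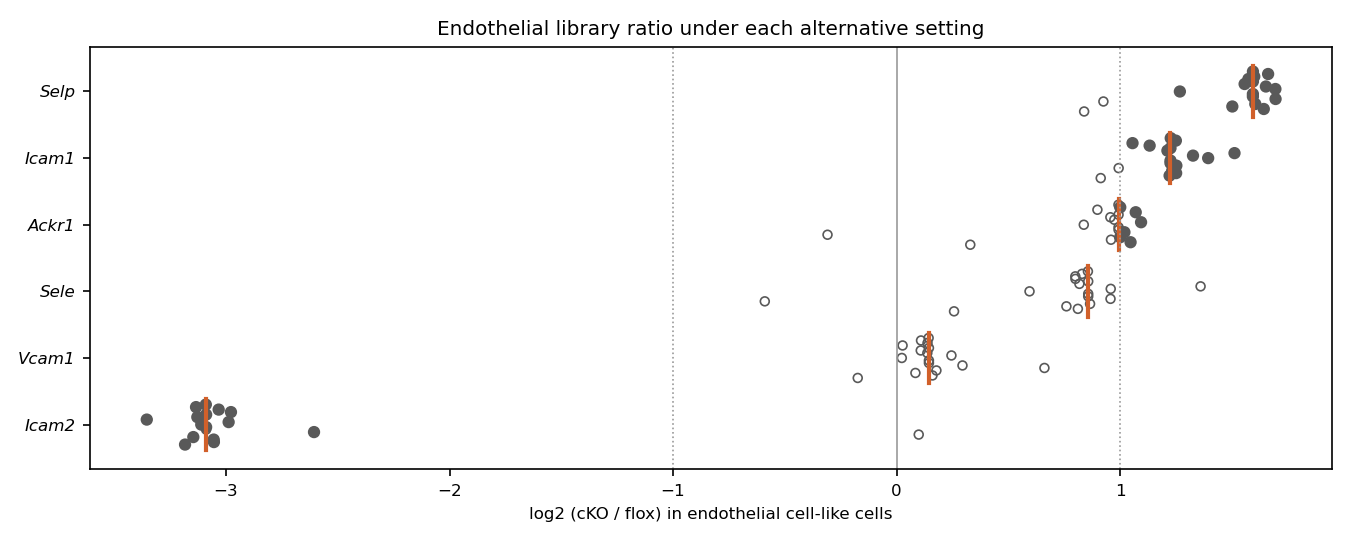
Log2 ratio of cKO over flox in endothelial cells for 6 vascular members; the orange bar is the value reported, each circle 1 of 17 alternative settings, filled where the size rule was passed, and dotted lines mark 2-fold. Selp (0.84 to 1.70) and Icam1 (0.91 to 1.51) passed in 15 of 17, Ackr1 in 6, and Icam2 in 15, with 1 setting at 0.10.

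Some vascular members overlapped in single cells. Of the 64 flox endothelial cells with a Selp UMI, 81.3% also had an Ackr1 UMI, against 11.8% of those without. In cKO the shares were 87.1% of 124 cells and 18.8%. Of the 18 and 41 cells with a Sele UMI, 94.4% and 92.7% had Icam1, against 29.5% and 53.3% of the others. Icam2 was found in 37.5% of flox cells with Selp and 31.7% of those without, and in cKO in 8.06% and 7.21%. Cells with a Selp UMI were deeper (median 7854 against 3749 UMIs in flox and 11269 against 4713 in cKO), and the part of depth in these overlaps was not tested.

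In the leukocyte classes, Hilpda was higher in cKO microglia and lower in cKO macrophages. Between libraries 2 members passed in at least 1 class, Icam2 and Ackr1, each in microglia-like and monocyte or macrophage-like cells. Over all genes in microglia 6.37% passed, 0.53% higher and 5.84% lower in cKO, and in macrophages 5.98% passed, 0.61% higher and 5.37% lower. Neither member is a main product of those cells. Icam2 went from 33 to 3 UMIs in microglia and from 79 to 10 in macrophages, while Ackr1 went from 15 to 34 and from 22 to 62 UMIs, at levels of 0.675 to 1.93 CPM. Ackr1 in oligodendrocytes stood at 0.463 and 3.84 CPM, from 1 and 9 UMIs with overlapping intervals, in the direction seen in endothelial cells. Whether free RNA took part was not tested.

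Icam2 was lower in endothelial cells and, from low counts, in microglia and macrophages. Its log2 ratio was −3.09 (−3.58 to −2.63) in endothelial cells, −3.34 in microglia and −3.04 in macrophages. The microglial ratio rests on 33 and 3 UMIs (1.48 and 0.147 CPM) and the macrophage ratio on 79 and 10 (2.56 and 0.312 CPM). Whether free RNA took part in these counts was not tested. Less the median ratio of the other classes Icam2 stood at 0.10 in endothelial cells and 0.18 in macrophages. The endothelial difference was thus much like that in microglia and macrophages. The border-associated macrophages had 1 Icam2 UMI in each library, and dendritic cells and neutrophils none. In the 3 endothelial clusters Icam2 went from 109 to 11.7 CPM, from 70.1 to 12.5 CPM and from 5 to 0 UMIs. The last 500 bases of the Icam2 transcript hold 54.8% GC, and genes of like GC had a median log2 ratio of −0.48 in endothelial cells. After that shift Icam2 stood at −2.61.

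Icam1 in leukocytes moved in different directions. It was higher in cKO neutrophils by 0.73 (0.55 to 0.90) and in border-associated macrophages by 0.52 (0.35 to 0.69), lower in dendritic cells at −0.62 (−0.90 to −0.34), and at −0.03 in microglia. None of these passed 2-fold, as against 6.23% of all genes in neutrophils, 5.97% in border-associated macrophages and 5.26% in dendritic cells. Vcam1 in macrophages was lower at −0.89 (−1.08 to −0.70), from 655 to 368 UMIs, and 6.53% and 5.06% of those cells had a UMI of it. Selplg in microglia was lower at −0.47 (−0.51 to −0.43), beside a median of −0.47 for microglial genes of like GC. The Siglech cluster, higher in Selplg and Icam1 than the Mmp12 cluster, held 958 of 2144 flox and 420 of 1406 cKO microglia. The part of this mix in the microglial Selplg and Icam1 ratios was not tested. The integrin chains Itgal, Itgb2 and Itga4 lay between −0.57 and 0.21 in all 5 leukocyte classes compared.

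The wider adhesion pathway was described by 7 lists of related genes, of which 1 gene passed between libraries in endothelial cells. Of all 11334 genes measured with at least 10 UMIs, 76 passed as higher and 556 as lower. The list gene was Itgam, the αM chain of the integrin Mac-1, at 40.2 and 19.4 CPM (log2 ratio −1.05), in a class where the summed pan-leukocyte genes were at 265 and 137 CPM. No measured gene of the junctional list (13 of 14 measured, median −0.12) passed, with Pecam1 at 1554 and 1927 CPM (0.31) and Cdh5 at 1236 and 1107 CPM (−0.16). Among cytokine inputs (15 of 15 measured, median −0.03) none passed, with the IL-1 receptor Il1r1 at 204 and 200.5 CPM and the NF-kB inhibitor Nfkbia at 1513 and 1868 CPM (0.30). The median over all genes with at least 10 UMIs was −0.11.

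In the 4 shear-stress factors, which restrain adhesion molecules, the median was −0.29 and none passed. Klf2 stood at 1619 and 1041 CPM (−0.64, −0.70 to −0.58), Klf4 at 812 and 644 CPM (−0.33) and Nos3 at 404 and 462 CPM (0.19). None passed either among selectin partners and glycosylating enzymes (12 of 16 measured, median −0.22), where Cd34 was at 1525 and 1414 CPM and Podxl at 787 and 489 CPM (−0.69), nor in integrin activation (12 measured, median −0.55) or the ezrin family (7 of 9 measured, median 0.11). Other leukocyte integrins had 8 of 11 measured and a median of −0.26.

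In macrophages, Fermt3 (kindlin-3, which activates integrins) passed and was lower in cKO, at 163 and 65.9 CPM. Podxl also passed, at 1.14 and 0.531 CPM, against 787 and 489 CPM in endothelial cells. Nos3, at 0.487 and 1.03 CPM, was the only gene of the lists that passed as higher. In endothelial cells Nos3 stood at 404 and 462 CPM. Whether free RNA took part in the low macrophage values of Podxl and Nos3 was not tested. The Fermt3 ratio of −1.30 stood beside a median of −0.41 for genes of like GC.

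Tnf, which induces adhesion molecules, was at 1402 and 1397 CPM in macrophages and 1866 and 2137 CPM on the leukocyte side. Between the sides, 14.9% of all genes passed on the endothelial side and 17% on the leukocyte side. On the endothelial side in both libraries were 8 of 11 measured junctional genes and all 4 shear-stress factors, 3 of 15 cytokine inputs, 3 of 7 ezrin family genes, 3 of 14 selectin partners and enzymes, 1 of 10 other integrins and 0 of 12 integrin activation genes. On the leukocyte side were 7 of 12 integrin activation genes, 6 of 10 other integrins, 7 of 14 selectin partners and enzymes, 5 of 15 cytokine inputs, 2 of 7 ezrin family genes, 2 of 11 junctional genes and 0 of 4 shear-stress factors.

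Genes of like pattern were sought over 30 sums, 15 classes in each of 2 libraries, among 12565 genes. The closest to Selp were Card10 (Pearson r 0.88), Stap2 (0.87) and Aplnr (0.86), and Aplnr was also the closest to Sele (0.98) and Ackr1 (0.96), with Lhx6 next for both (0.97 and 0.95). Nfkbia, an NF-kB target, was the closest to Icam1 (0.91). Itgb2 followed Myo1f, Cd53 and Laptm5 (0.98, 0.98 and 0.97), Selplg Coro1a (0.95), Itgal Hcst (0.95), Itga4 Arhgap15 (0.94) and Icam2 Exoc3l (0.95). Vcam1 had no close match, the highest being Aldh2 at 0.71. These r values are descriptions, since the sums share libraries and class depths. Those of Sele rest on its endothelial sums, of 32 and 81 UMIs, as no other class passed 0.792 CPM of it.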

How the data were processed

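The authors deposited raw UMI counts per gene and cell barcode for the 2 BD Rhapsody libraries. The submitters' processing notes name CASAVA 1.8, STARsolo, Seurat and mm10, with aligner settings and annotation not given. Cells with at least 500 UMIs, 200 genes and at most 25% mitochondrial UMIs were kept, and Scrublet doublets were removed (scanpy 1.11.5, expected 6%): 210 in flox and 142 in cKO. Cells were clustered with Leiden (leidenalg 0.10.2, resolution 1, 2000 variable genes, 30 components, 20 neighbours), with the members left out of the clustering genes. Clusters were named "X-like" from marker lists, with thresholds set after the clusters were seen, and a cell had to carry at least 2 markers of its class. A name needed a marker score of 0.15, but 0.08 sufficed for monocyte or macrophage-like. Among the clusters named by this lower limit were those led by Il10 and Vegfa (score 0.143) and by Fabp4 and Cd36 (0.122). A cluster led by haemoglobin genes and one with B cell and plasmacytoid dendritic markers stayed unnamed. Rebuilt names may differ from the study's. Counts were summed per class and library. Levels carry exact Poisson intervals, log2 ratios exact conditional intervals and shares Clopper-Pearson intervals, all at 95%. A member passed where it differed at least 2-fold, had at least 30 UMIs in the higher group and an interval without equality. The ratios and this rule were tried on Poisson counts drawn from class sums, without spread between cells. That trial did not cover the clustering or the naming of cells. Detection limits use 3 counts. The genes named are the 10 members, list genes chosen by rule, and the 3 genes closest to a member in pattern (at least 100 UMIs, pseudocount 10). GC content is that of the last 500 bases of the transcript in 10 bins. TMM scaling used edgeR 4.0.16 in R 4.3.3. The members and gene lists were chosen with earlier results of these data known. One list gene is not reported here.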

Additional observations from a re-analysis of the deposited data

How the results depend on the processing

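No paired analysis was possible because each group has 1 library, and no replicate could be left out. Of the 5 members higher on the endothelial side, 3 passed with cells thinned to 1000 UMIs and 3 with a minimum of 100 CPM, which left 2 of the 4 leukocyte members. Of the 4 members that passed between libraries in endothelial cells, 2 did so with a minimum of 100 CPM, 1 less the median of the other classes and 2 at 1 common mix of subsets. In leukocyte classes the 2 members became 0 when thinned, 0 with a minimum of 100 CPM, 5 with no minimum UMI count and 1 less the median of the other classes. The Icam2 ratio changed sign in that last setting, to 0.10 in endothelial cells and 0.18 in macrophages. Fewer UMIs enter the thinned setting; other causes were not tested. The other settings gave counts within 1.5 times. The common mix, and the settings without shared barcodes, without subsets led by leukocyte or pericyte genes and without the low-depth endothelial cluster, were chosen after seeing the data. Sele, Itgal and the leukocyte members in endothelial cells are limited by low counts.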
